A study of Homo sapiens with 8 samples.

Results

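Arrays with 2 colours of MDA-MB-231, a human breast cancer line, were used to set 2 small interfering RNAs (siRNAs) against the same gene, GINS1, beside each other. The members were the array of si-GINS1_1 (siRNA 1) and the array of si-GINS1_2 (siRNA 2), which are 2 of 8 samples in the series and 1 array per siRNA. On both arrays the Cy5 channel held total RNA of cells that received the siRNA with Lipofectamine RNAiMAX, and the Cy3 channel held RNA of mock MDA-MB-231 cells, which the labels describe as having had no transfection. The other 6 arrays carried miR-139 or miR-490 strands in A498, 786-O or HCT116 cells and serve here only to show how far a probe moved elsewhere. A gene was measured when its probe was well above background in at least 1 channel on both arrays, which held for 27806 of 58201 probes and for 19129 of 36046 genes with a symbol.

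The quantity followed throughout is the difference, the log2 ratio of transfected over mock with siRNA 1 minus that with siRNA 2. A positive difference means a higher ratio with siRNA 1, and each unit of the log2 scale doubles the ratio. With 1 array per siRNA there is no replicate check, so no p-value is given and genes were counted by size, at or above 1 or at or below -1 and also at 0.5 and -0.5. Neither the time of harvest, the dose nor the letters of the siRNAs were in the sources used here. The mock received no transfection, so the ratios also hold whatever the reagent and an siRNA of any sequence do, and no array held a control siRNA. The dyes were never swapped, and a bias of the dyes drops out of the difference only where it was equal on both arrays.

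The product of GINS1 is 1 of the proteins that make up the GINS complex. This complex joins CDC45 and the MCM ring to form the helicase that unwinds DNA at replication forks, and cells carry out this work in S phase. Many genes for the helicase, the polymerases and the supply of nucleotides are switched on together by E2F factors as cells pass from G1 into S phase. A later wave of genes for mitosis is switched on in G2, and histone genes are transcribed while DNA is copied. An siRNA guides Argonaute to a matching transcript, and can also lower other transcripts through short matches. Setting the arrays of siRNAs of one target side by side shows which transcripts differ between those arrays.

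The arrays were of similar quality. One channel or both cleared background for 29688 probes on the array of siRNA 1 and for 28633 on that of siRNA 2, and all 8 arrays lay on 1 slide. No spot was saturated. Of 10 genes that mark a basal-like mesenchymal breast line, 9 were above background in both mocks, among them VIM, CD44, AXL and CAV1, and SPARC was above it in the mock of 1 array only. Of 8 luminal genes, PGR and FOXA1 were not above background in either mock, while ESR1, GATA3, ERBB3, CDH1, EPCAM and KRT19 were above it in both, KRT19 brightly. With so few arrays, precision is limited throughout.

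The difference between the siRNAs was far wider than the difference between their mocks. Over 19129 genes the difference of ratios had an SD of 0.485 log2 units. The direct difference of the Cy5 channels, which does not use the mock, had an SD of 0.510. The Cy3 channels, both of mock RNA, differed with an SD of 0.0740, so the spread of ratios was 6.55 times that of the mocks. Whether both arrays carried one mock extract is not stated, and the spread between separate transfections is not part of this value.

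By size, 574 genes (3.00%) lay at or above 1 and 524 (2.74%) at or below -1. At 0.5 the counts were 2215 genes (11.6%) and 1778 genes (9.29%). The Cy5 channels alone put 605 genes (3.16%) at or above 1 and 626 (3.27%) at or below -1. Past 1 on both scales were 541 genes (2.83%) on the side of siRNA 1 and 512 (2.68%) on the side of siRNA 2. Against its own mock, siRNA 1 put 202 genes (1.06%) at or above 1 and 456 (2.38%) at or below -1, and 8.87% and 8.24% past 0.5 and -0.5. For siRNA 2 the counts were 125 genes (0.653%) and 277 (1.45%), with 5.04% and 7.03% past 0.5 and -0.5. Between the mocks 0 genes (0.00%) differed by 1 in either direction, and 3 (0.0157%) and 4 (0.0209%) differed by 0.5. The most unequal mock values were 0.96 for CDC42SE1 and -0.92 for NAIF1, so single probes can differ by far more than the SD. The balance of the counts depends on the centring. Of the genes past 1, 52.3% were higher with siRNA 1 by loess and 75% by median centring of each array, where the counts were 1083 and 361 and the median of all genes was 0.11 in place of 0.01.

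**Figure D1:**
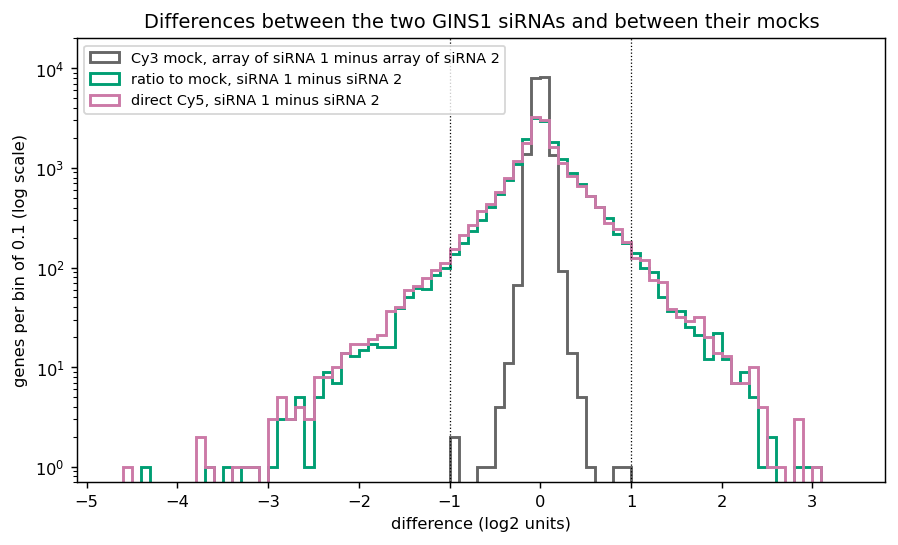
Histograms of 3 differences over 19129 genes, with the difference in log2 units on the x axis and genes per bin of 0.1 on a logarithmic y axis. The mock channels (grey) stay within 1 unit of 0, while the ratios to mock (green) and the Cy5 channels (pink) reach from below -4 to 3.

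GINS1 itself was below its mock on both arrays. The GINS1 probe (NM_021067, chromosome 20 from 25429111 to 25429170 of hg19) had a log2 ratio of -1.31 with siRNA 1 and of -1.92 with siRNA 2. These ratios leave 40.4% and 26.4% of the mock signal. The difference was 0.61, or 0.57 on the Cy5 channels, and the mock channels differed by -0.04. Elsewhere in the series its ratio ran from -0.11 to 0.55. The target was thus lower on the array of siRNA 2, by more than the SD of the mocks, which leaves out the spread between separate transfections. A difference of this size was not rare, with 2215 genes (11.6%) at or above 0.5. The GINS1 gap stands beside every result below. Its part in them was not tested.

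The partners of GINS1 went in opposite directions. GINS2 (NM_016095, chromosome 16 from 85711654 to 85711713), another GINS subunit, had a log2 ratio of 1.21 with siRNA 1 and of -1.07 with siRNA 2, a difference of 2.28. GINS3 lay at 0.83 and -0.47, a difference of 1.30. GINS4 lay at 0.94 and -0.71, a difference of 1.65. CDC45 (NM_003504, chromosome 22 from 19506385 to 19508015), which binds GINS in the helicase, lay at 0.75 and -1.63, a difference of 2.38 that is 5.22-fold. With siRNA 1 the other GINS subunits and CDC45 were above their mock, and with siRNA 2 all of them were below it. On the Cy5 channels alone their differences were between 1.34 for GINS3 and 2.42 for GINS2.

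**Figure D2:**
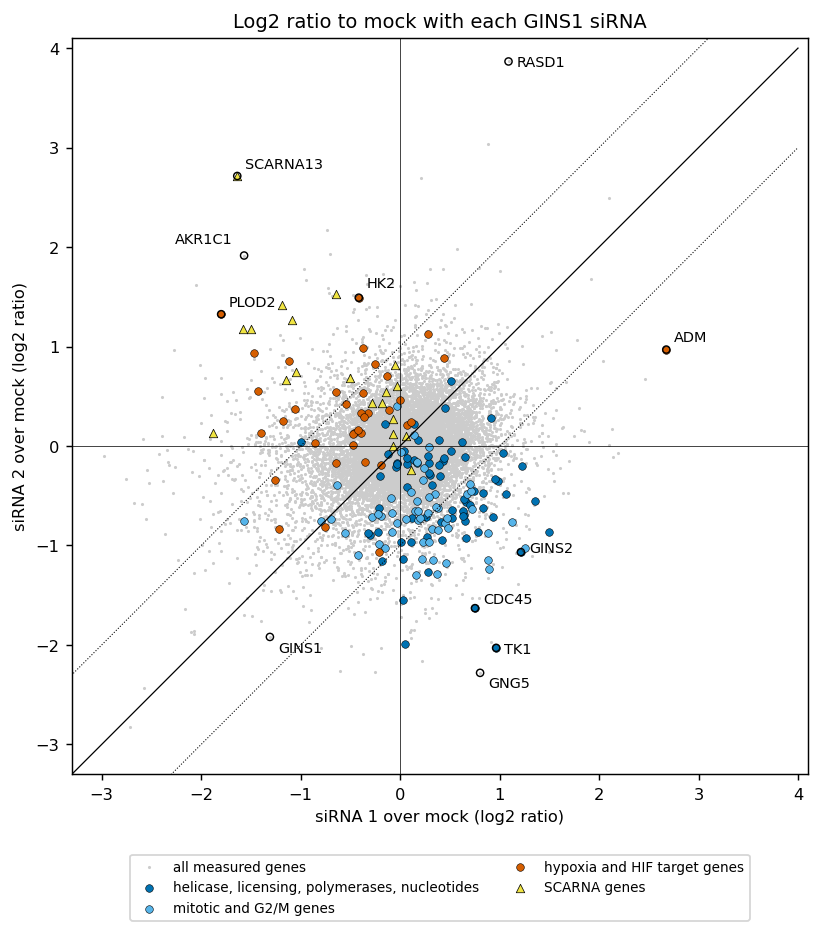
Log2 ratio of transfected over mock with siRNA 1 (x axis) and siRNA 2 (y axis), 1 grey point per measured gene and coloured points for members of 3 groups of lists and for SCARNA genes. The solid line marks equal ratios and the dotted lines a difference of 1. Most replication and mitotic genes fall below the solid line and most hypoxia and SCARNA genes above it, while GINS1 lies in the lower left corner with both siRNAs.

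The helicase and the machinery that loads it were higher with siRNA 1 almost throughout. Of 35 genes, all measured, 23 (65.7%) lay at or above 0.5 and 0 at or below -0.5, and 13 (37.1%) lay at or above 1. The median log2 ratio was 0.32 with siRNA 1 and -0.33 with siRNA 2, with a median difference of 0.65 (0.63 on Cy5). The median difference over all measured genes was 0.01. In these bulk samples, fewer cells in a stage of the cycle and less of a transcript per cell cannot be told apart.

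CDC45 and the MCM genes were all higher with siRNA 1. All 8, the core ring MCM2 to MCM7 with CDC45 and MCM10, lay at or above 0.5. With siRNA 1 they were on both sides of the mock, from -0.30 for MCM6 to 0.75 for CDC45, and with siRNA 2 every one was below it. MCM5, of the ring, was at 0.64 and -0.70, a difference of 1.34. MCM2, also of the ring, was at 0.00 and -0.96, so that its difference of 0.97 came from the siRNA 2 array. Of 12 genes for origin recognition and licensing, 5 lay at or above 0.5. Among them was CDT1, which loads the ring, at 1.36 and -0.56 with a difference of 1.91. ORC2, a subunit of the origin recognition complex, went the other way at -0.15 and 0.22, a difference of -0.38. CDC7, the kinase that fires origins, was at 1.22 with siRNA 1 and near its mock, at -0.20, with siRNA 2.

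Promoter sequences are shown for lists whose genes are known to answer to a factor with a short recognised motif, namely E2F, mitotic, hypoxia and ATF4 genes. They come from RefSeq (GRCh38.p14), are read along the gene's strand and end at or before the start of transcription. A window of 250 bases before to 50 after the start was searched for each motif on both strands, and overlapping matches counted for each motif. The E2F letters TTTNNCGC stood in 13 of 29 helicase and licensing promoters (44.8%), in 9.79% of 11872 measured genes and in 6.90% of all 27305 promoters. In the helicase and licensing list the median difference was 0.97 with them and 0.41 without. In the polymerase and nucleotide list it was 0.57 with them and 1.18 without. Over all measured genes with a promoter in the table, 6.88% of those with the letters and 3.49% of those without lay at or above 1. This contrast was not particular to E2F. The shares with and without were 6.16% and 3.55% for the mitotic letters TTTGAA, and 4.81% and 3.26% for CCAAT. They were 3.53% and 3.93% for the hypoxia letters ACGTG, and 3.57% and 3.83% for the ATF4 letters TGATGNAA. Capitals mark the E2F letters in GINS2 (chr16:85688955-85689000, minus strand), E2F2 (chr1:23531249-23531325, minus strand), PCNA (chr20:5126627-5126696, minus strand) and UHRF1 (chr19:4909374-4909500, plus strand), and in E2F2 a pair of matches overlaps. CDC45, TK1 and MCM2 were searched too and held no such letters before their start.
GINS2: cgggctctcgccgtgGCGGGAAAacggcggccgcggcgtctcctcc
E2F2: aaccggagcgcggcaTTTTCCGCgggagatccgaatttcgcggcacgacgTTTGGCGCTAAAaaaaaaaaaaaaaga
PCNA: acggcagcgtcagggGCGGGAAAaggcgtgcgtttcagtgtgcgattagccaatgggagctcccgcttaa
UHRF1: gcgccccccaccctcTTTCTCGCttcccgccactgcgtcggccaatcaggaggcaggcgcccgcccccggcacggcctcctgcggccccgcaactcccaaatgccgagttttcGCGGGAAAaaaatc

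DNA synthesis and nucleotide supply held the widest gap of all lists. Of 37 genes, all measured, 28 (75.7%) lay at or above 0.5 and 20 (54.1%) at or above 1, while 1 lay at or below -1. The median log2 ratio was 0.40 with siRNA 1 and -0.62 with siRNA 2, and the median difference was 1.10 (1.13 on Cy5). TK1 (NM_003258, chromosome 17 from 76170193 to 76170252), the thymidine kinase of S phase cells, was at 0.97 with siRNA 1 and at -2.03 with siRNA 2. Its difference of 2.99, or 7.97-fold, was the second highest of all measured genes, after GNG5. Its Cy5 difference was 2.84, and its mock channels differed by -0.25.

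Other nucleotide genes were near the mock with siRNA 1 and far below it with siRNA 2. DUT, which clears dUTP, was at 0.05 and -1.99. TYMS, thymidylate synthase, was at 0.03 and -1.55. Their differences were 2.04 and 1.58. CTPS1, which makes CTP, was above the mock with both, at 0.51 and 0.66. RRM2, a subunit of ribonucleotide reductase, was below the mock with both, at -0.32 and -0.87.

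Genes that act at the fork showed the gap on both sides of the mock. Of 16 clamp, loader and maturation genes, 9 lay at or above 1. FEN1, which trims Okazaki fragments, was at 0.65 and -0.76. LIG1, which joins them, was at 0.42 and -0.95, and RFC2, of the clamp loader, was at 0.78 and -0.86. PCNA, the clamp, was below the mock with both siRNAs, at -0.18 and -1.16. Of 12 polymerase genes 8 lay at or above 0.5, such as POLE2 at 0.83 and -0.62. POLA1, of the primase complex, was at -0.21 and -0.30, and its difference changed sign between the ratio (0.09) and the Cy5 channels (-0.15). POLD4, a small subunit of polymerase delta, was the exception, with a difference of -1.03 and a ratio of 0.04 with siRNA 2.

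**Figure D3:**
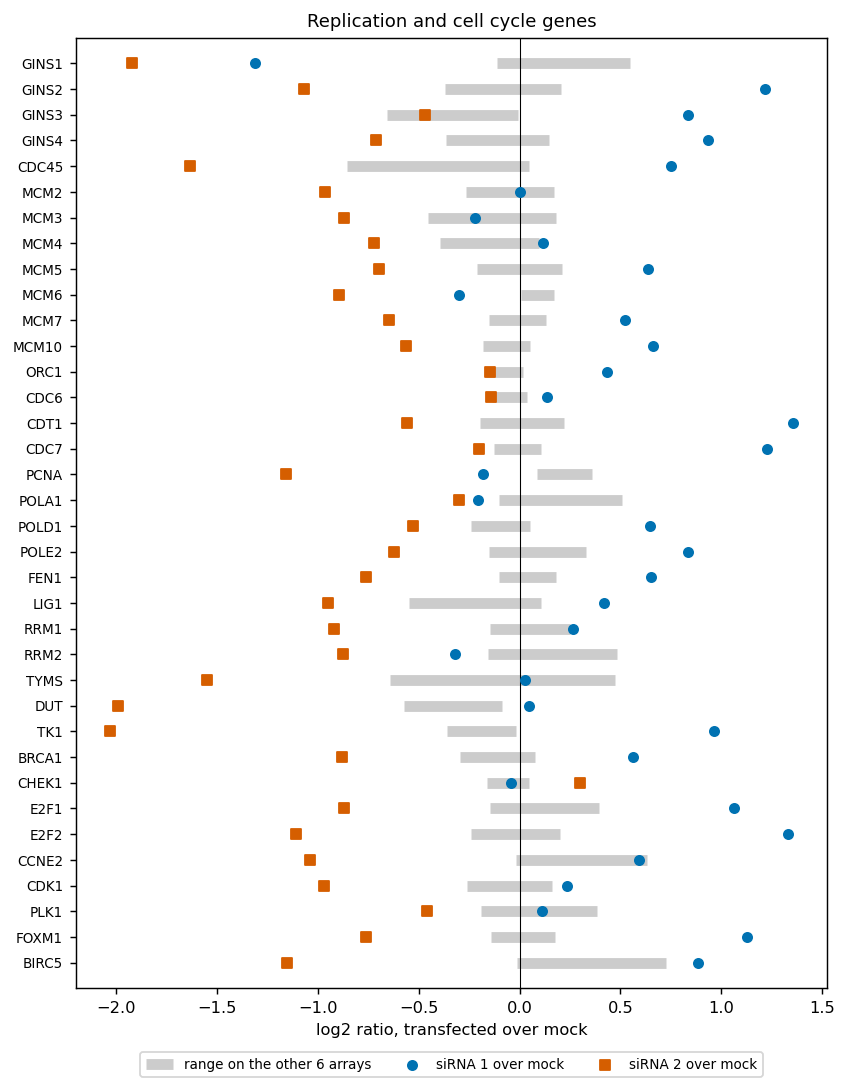
Log2 ratio of transfected over mock for replication and cell cycle genes with siRNA 1 (circles) and siRNA 2 (squares), 1 value per array, with the range over the other 6 arrays as a grey bar. GINS1 is left of 0 with both, and nearly all other genes have the square left of 0 and the circle to the right of the square.

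Fork repair genes lay higher with siRNA 1, while checkpoint genes had a median difference near 0. Of 24 repair genes 17 lay at or above 0.5 and 12 at or above 1, with a median difference of 0.96. Of 10 checkpoint genes 3 lay at or above 0.5, with a median of -0.01. UHRF1, which reads newly copied DNA, was at 0.72 and -1.64, and its second probe gave 0.57 and -0.78. BRCA1 was at 0.56 and -0.88, FANCD2 at 0.87 and -0.62, and EXO1, a nuclease of repair, at 0.89 and -0.71. CHEK1 was at -0.04 and 0.30, a difference of -0.34, and ATR, the kinase that senses stalled forks, was at 0.20 and 0.17. WEE1, which holds CDK1 back, was below the mock with both, at -0.67 and -0.79.

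Among G1 to S regulators E2F1 and E2F2, activators of the E2F family, had the largest differences. Of 27 measured genes of 28, 15 (55.6%) lay at or above 0.5 and 10 (37.0%) at or above 1, with medians of 0.38 and -0.32 and a median difference of 0.58. E2F2 (NM_004091, chromosome 1 from 23832933 to 23832992) was at 1.33 and -1.11, a difference of 2.44. E2F1 was at 1.06 and -0.87, a difference of 1.93. E2F3, another activator, had a difference of 0.19 by ratio and of 0.01 on the Cy5 channels. Of the repressors, E2F7 was above the mock with both, at 0.26 and 0.45, while E2F8 was at 0.30 and -0.88, a difference of 1.18. CDC25A, the phosphatase that frees CDK2, was at 1.57 and -0.09. CCNE2, a cyclin of S phase entry, was at 0.59 and -1.04, while CCNE1 was above the mock with both, at 0.52 and 0.23. CCND1, cyclin D1, was below it with both, at -1.44 and -1.01. Of 4 inhibitors, CDKN1B was at 0.89 and -0.84 and CDKN1C at -1.12 and 0.01, so they pointed in opposite directions.

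Mitotic genes were below the mock with siRNA 2 and near or above it with siRNA 1. Of 55 genes, all measured, 41 (74.5%) lay at or above 0.5 and 21 (38.2%) at or above 1, while 1 lay at or below -0.5. The medians were 0.22 and -0.73 and the median difference was 0.84 (0.86 on Cy5). With siRNA 2, 51 of the 55 were below the lowest of the other 6 arrays, though the same share over all measured genes is not given here. SPC24, of the NDC80 complex that ties chromosomes to the spindle, was at 1.25 and -1.03, a difference of 2.28, and its second, dimmer probe gave 0.94. BIRC5, of the chromosomal passenger complex, was at 0.88 and -1.15, a difference of 2.03. FOXM1, the factor that drives G2 genes, was at 1.12 and -0.76. MKI67, the proliferation antigen, was at 0.22 and -1.14, CDK1 at 0.23 and -0.97, and TOP2A, topoisomerase II alpha, at 0.48 and -0.82. Not all members followed. CCNA2, cyclin A2, was below the mock with both, at -0.69 and -0.73. SMC4, a condensin subunit, was at -1.57 and -0.75 and was the 1 member at or below -0.5, at -0.81.

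The letters TTTGAA of the cell cycle homology region, through which the MuvB complex acts on mitotic genes, stood in 31 of 46 mitotic promoters (67.4%). They stood in 10.4% of measured genes and in 15.4% of all promoters. Within the list the median difference was 0.80 with the letters and 0.79 without. Capitals mark them, or their reverse complement, in PLK1 (chr16:23678845-23678888, plus strand), whose ratios were 0.11 and -0.46, and in CDC20 (chr1:43358788-43358936, plus strand), whose ratios were 0.47 and -0.72. CCNB1 was searched too and held no such letters before its start.
PLK1: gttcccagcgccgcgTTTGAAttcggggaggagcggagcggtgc
CDC20: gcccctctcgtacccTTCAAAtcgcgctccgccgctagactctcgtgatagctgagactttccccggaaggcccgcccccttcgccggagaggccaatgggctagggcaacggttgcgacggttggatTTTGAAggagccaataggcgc

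Histone genes that are transcribed with DNA synthesis had the highest share of members at or above 0.5 among the 29 lists. Of 47 measured of 52, 39 (83.0%) lay at or above 0.5 and 19 (40.4%) at or above 1, and 0 lay at or below -0.5. The median log2 ratio was 0.01 with siRNA 1 and -0.70 with siRNA 2, with a median difference of 0.92. H3C2 was at -0.37 and -2.09, H2AC11 at -0.29 and -1.42 and H4C13, by its brighter probe, at -0.12 and -1.28, all lower with siRNA 2. The dimmer H4C13 probe gave -0.07 and -0.08, with no gap. Genes of H2B showed another form of the gap, with H2BC8 at 1.25 and 0.07 and H2BC12 at 1.42 and 0.13, above the mock with siRNA 1 and near it with siRNA 2. H3C11 had the lowest difference of the list, at -0.18. CCAAT, a box that many promoters carry, stood in 36 of 42 histone promoters (85.7%) and in 36.4% of measured genes, and the median difference was 0.93 with it and 0.98 without. Histone copies are near-identical in sequence, so a probe may take up transcripts of several, and single genes are uncertain. Their probes also had a higher GC content, with a median of 53.3% against 43.3% over all genes. With all genes split into 4 bins by probe GC content, the median difference ran from 0.0038 to 0.0088. The top bin was wide, from 51.7% to 91.7%. The part of probe GC content in the histone values was not tested.

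**Figure D4:**
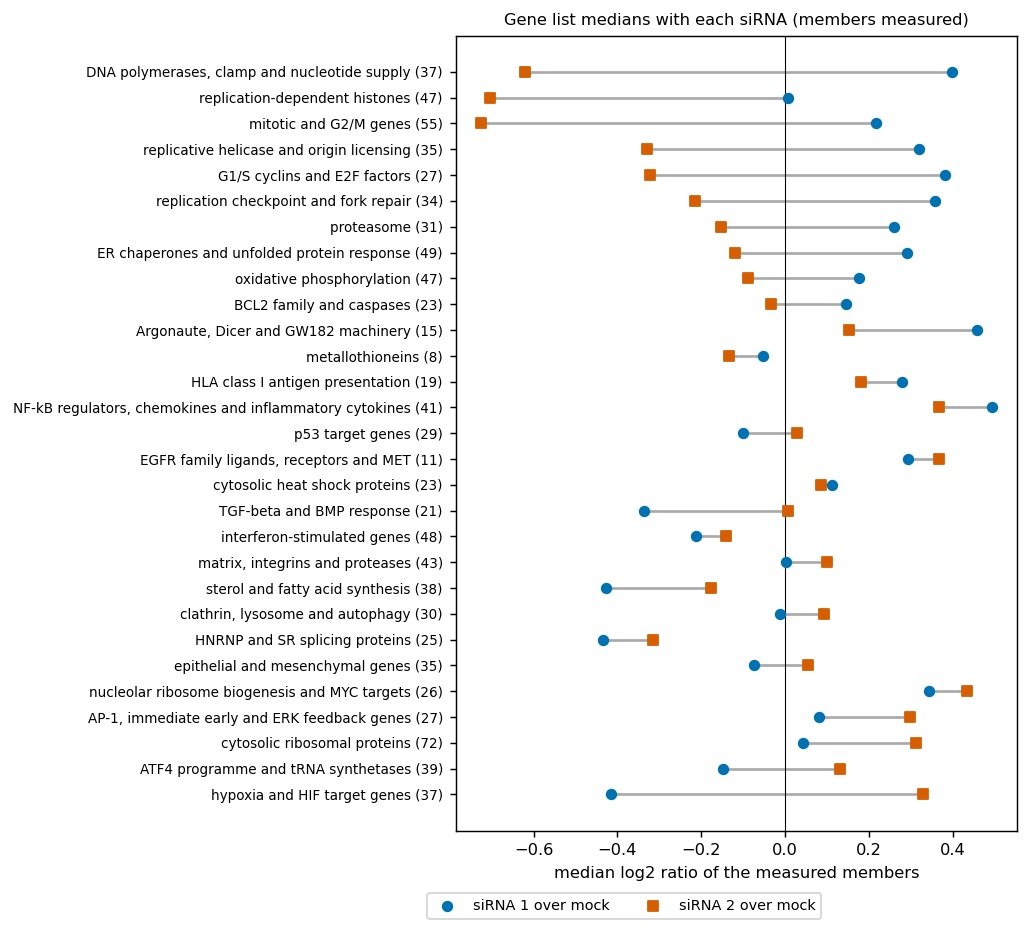
Median log2 ratio of the measured members of 29 gene lists with siRNA 1 (circles) and siRNA 2 (squares), ordered by the median difference, with the number of members measured in brackets. Polymerases, histones, mitotic genes and the helicase are at the top with siRNA 2 to the left, and hypoxia genes are at the bottom with siRNA 1 to the left.

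Protein turnover and folding genes leaned the same way, by less. Of 31 proteasome genes, 17 (54.8%) lay at or above 0.5, 3 at or below -0.5 and 2 at or above 1. Medians were 0.26 and -0.15 with a median difference of 0.57. PSMB2 and PSMB6, of the core particle, had differences of 1.11 each, and PSMD12, of the cap, was the reverse at -0.58 and 0.53. Of 49 genes of the endoplasmic reticulum (ER), 20 (40.8%) lay at or above 0.5 and 7 (14.3%) at or below -0.5, so the list was mixed. HSPA5 (NM_005347, chromosome 9 from 127997149 to 127997208), the main ER chaperone known as BiP, was at 1.63 and -0.48, a difference of 2.11. MANF was at 0.86 and -0.46 and SDF2L1 at 1.21 and -0.07. Both are induced when proteins misfold in the ER. HSP90B1, another ER chaperone, was below the mock with both, at -1.44 and -0.44. DNAJB9, a co-chaperone of HSPA5, was at -0.02 and 0.96. SSR1, of the translocon, had a difference of -2.10 by its brightest probe, and of -0.79 and -0.64 by the others. HSPA5 reached -2.35 on the other 6 arrays, so HSPA5 was far from its mock elsewhere in the series too.

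Hypoxia genes had the lowest median difference of the 29 lists. HIF factors switch these genes on at low oxygen, and they serve glucose uptake, glycolysis and collagen processing. Of 37 measured of 38, 24 (64.9%) lay at or below -0.5, 11 (29.7%) at or below -1 and 2 at or above 0.5. The median log2 ratio was -0.42 with siRNA 1 and 0.33 with siRNA 2, with a median difference of -0.66 (-0.70 on Cy5, and -0.45 by median centring). PLOD2 (NM_182943, chromosome 3 from 145787452 to 145787511), which hydroxylates collagen, was at -1.80 and 1.32, a difference of -3.12. HK2, the hexokinase of glycolysis, was at -0.42 and 1.49. NDRG1 was at -1.47 and 0.93, BNIP3, of mitophagy, at -1.43 and 0.55, and PDK1, which keeps pyruvate out of mitochondria, at -1.18 and 0.25. LDHA was at -0.85 and 0.03. PGK1, a glycolytic enzyme, was at -1.40 and 0.13, and with siRNA 1 it was just below the lowest of the other 6 arrays, -1.26.

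The list was not uniform. ADM, adrenomedullin, was at 2.68 with siRNA 1 and at 0.97 with siRNA 2, the reverse of the list, as was TPI1, a glycolytic enzyme, at -0.22 and -1.07. VEGFA was above the mock with both, at 0.44 and 0.88, and ENO1, a glycolytic enzyme, was below it with both, at -1.22 and -0.84. Of the factors, HIF1A was at -0.36 and 0.29 and EPAS1, which encodes HIF-2 alpha, at 0.28 and 1.13. CA9, a usual marker of hypoxia, was not above background on both arrays and was not measured.

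The letters ACGTG, the core of the hypoxia response element, stood in 16 of 33 hypoxia promoters (48.5%), in 25.8% of measured genes and in 21.6% of all promoters. The median difference was -0.90 in the 16 promoters with the letters and -0.58 in the 17 without. All 16 had differences below 0, from -3.12 to -0.14, but so did 34 of the 37 measured genes of the whole list. Over all measured genes 3.07% with the letters and 3.21% without lay at or below -1. Capitals mark the letters or their reverse complement in PLOD2 (chr3:146161311-146161399, minus strand) and P4HA1 (chr10:73096898-73096967, minus strand), a collagen prolyl hydroxylase with ratios of -0.48 and 0.01.
PLOD2: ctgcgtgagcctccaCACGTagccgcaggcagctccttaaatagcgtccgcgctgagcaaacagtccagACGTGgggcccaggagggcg
P4HA1: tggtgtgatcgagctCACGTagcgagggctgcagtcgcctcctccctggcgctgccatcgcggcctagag

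**Figure D5:**
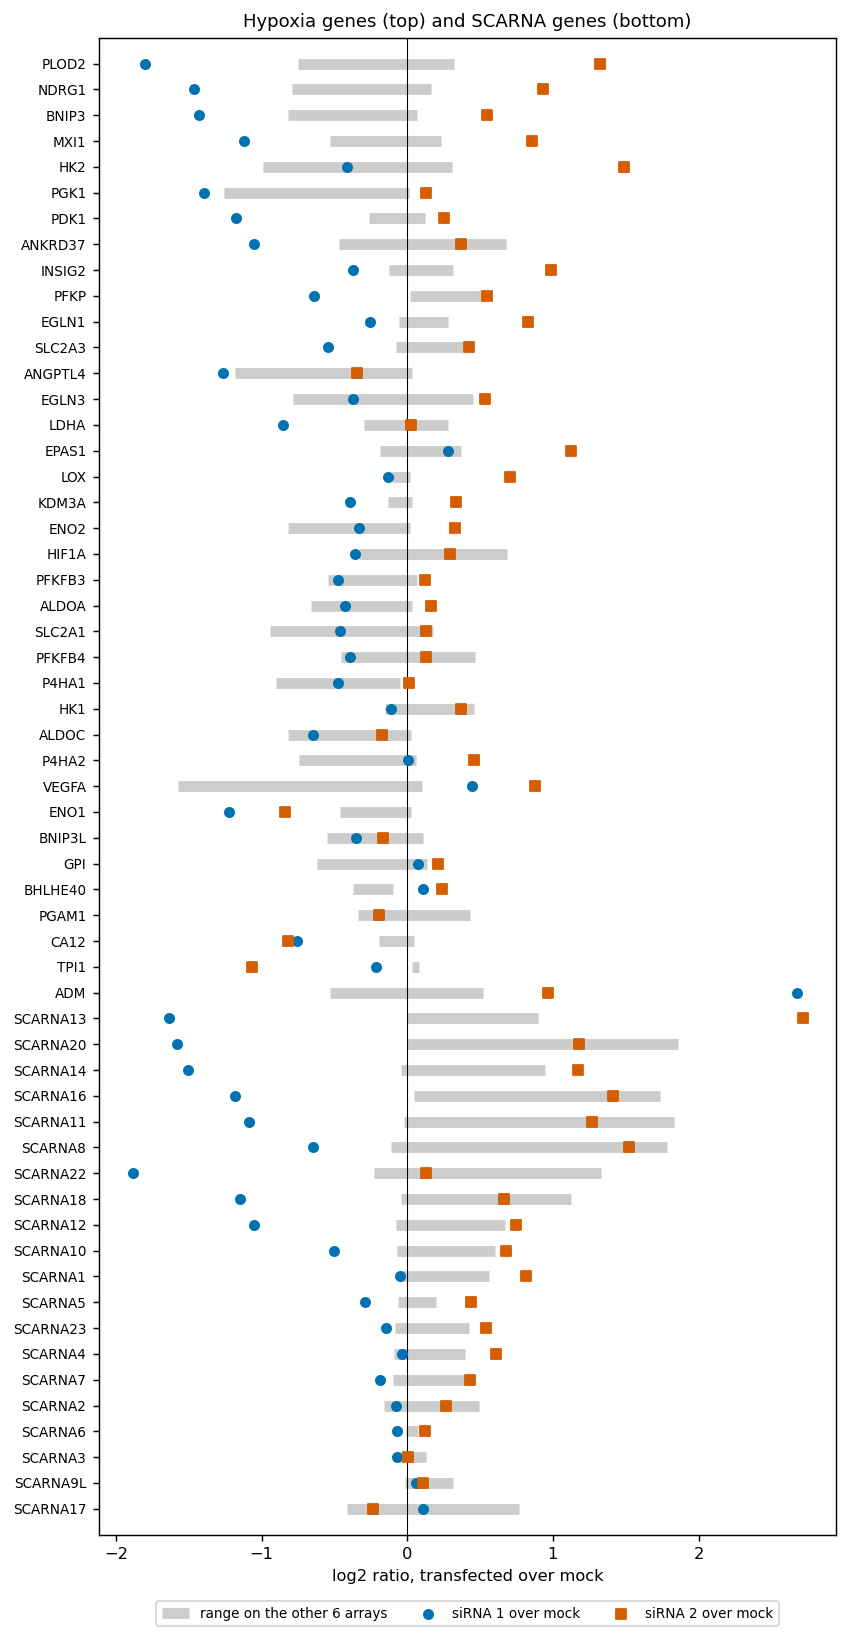
Log2 ratio of transfected over mock for 37 hypoxia genes and 20 SCARNA genes with siRNA 1 (circles) and siRNA 2 (squares), 1 value per array, each block ordered by the difference, and the range over the other 6 arrays as a grey bar. From PLOD2 down to BHLHE40 the circle lies left of the square, and TPI1 and ADM are the reverse. For the SCARNA genes many squares lie inside the grey bar, while the upper circles lie left of it.

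The ATF4 programme, which serves amino acid supply under stress, was lower with siRNA 1 in part. Of 39 measured of 41, 17 (43.6%) lay at or below -0.5 and 8 (20.5%) at or below -1, with medians of -0.15 and 0.13 and a median difference of -0.38. PSAT1, of serine synthesis, was at -1.66 and -0.34. ASNS, asparagine synthetase, was at -1.02 and -0.02. SLC7A11, the cystine transporter, was at -1.41 and -0.28, so with siRNA 2 these genes were less far below the mock or level with it. DDIT4, an inhibitor of mTORC1, was at -1.33 and 0.03. ATF4 itself had the reverse sign, at 0.35 and -0.04, and DDIT3, or CHOP, was at 0.52 and 0.15. On the other 6 arrays ASNS reached -2.37. The ATF4 response element letters TGATGNAA stood in 11 of 32 promoters of the list (34.4%) and in 1.89% of measured genes. The median difference was -0.16 with them and -0.43 without. The ASNS stretch (chr7:97872422-97872491, minus strand) is shown with them in capitals.
ASNS: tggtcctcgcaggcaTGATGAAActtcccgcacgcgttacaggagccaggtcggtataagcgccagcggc

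Small nucleolar and Cajal body RNAs held the lowest values of all. They guide the modification of ribosomal and spliceosomal RNA, and most lie in introns of other genes. These families were picked after their values were seen, so the counts are a description. Of 20 SCARNA genes, 15 lay at or below -0.5 and 10 at or below -1, with a median difference of -1.02. Of 94 SNORA genes, of the box H/ACA class, 44 (46.8%) lay at or below -0.5, with a median of -0.43. Of 112 SNORD genes, of the box C/D class, 5 (4.46%) lay at or below -0.5 and 0 at or below -1, with a median of -0.11. Over all measured genes 9.29% lay at or below -0.5 and 2.74% at or below -1, so the SNORD shares were smaller than these. By the scanner log ratio the family medians were -2.12, -0.85 and -0.33, and by median centring they were -1.01, -0.30 and -0.04, so their sizes depend on the processing. SCARNA13 (NR_003002, chromosome 14 from 95999692 to 95999751) was at -1.64 and 2.71, a difference of -4.35 that was the lowest of all genes. SNORA67 was at -2.05 and 1.62, SNORA48 at -0.73 and 2.18 and SCARNA20 at -1.58 and 1.18.

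High values of SCARNA genes were also seen on other arrays, where 6 of the 20 reached 1 or more and the highest value was 1.86. With siRNA 2, 9 of 20 were above all other 6 arrays, and with siRNA 1, 15 of 20 were below all of them. The families differed in this. Elsewhere 4 of 94 SNORA and 0 of 112 SNORD genes reached 1. With siRNA 2, 61 SNORA and 62 SNORD genes were above all other arrays, and with siRNA 1, 47 and 20 were below all of them. Some of these steps were small, as for SNORD41, at 0.24 with siRNA 2 against a highest value of 0.13 elsewhere. The same share over all measured genes is not given here, so these counts, SCARNA included, only describe the families. The mock channels of SCARNA13 differed by -0.03. RNA5-8SN5, a short ribosomal RNA, had a difference of -2.62, but its mock channels also differed, by -0.91. The part of that mock difference in it was not tested.

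ERK feedback genes were mostly lower with siRNA 1, while adhesion and matrix genes differed member by member. Of 27 AP-1 and ERK genes, 9 lay at or below -0.5 and 0 at or above 0.5, with a median difference of -0.29. The 12 ERK feedback genes had a median of -0.74 (-0.79 on Cy5), with 10 below 0 and 7 at or below -0.5. The 15 AP-1 and immediate early factors had a median of -0.10. SPRY1, a brake on ERK signalling, was at -1.74 and -0.29, and DUSP6, a phosphatase of ERK, at -0.83 and 0.30. ERRFI1, which restrains EGFR, was at -1.47 and 0.88, a difference of -2.34. Of 10 integrin genes 4 lay at or below -1. ITGB1, the common beta chain, was at -1.97 and -0.14, ITGAV at -0.92 and 0.83, and ITGA6 was the reverse at -0.27 and -1.28. Of 17 measured mesenchymal genes 4 lay at or below -1 (3 on Cy5), against 2.74% of all genes, and the median difference was -0.31. Among these 4 were TGFBI at -1.96 and 0.68, FN1, fibronectin, at -0.73 and 0.95, and VIM, vimentin, at -0.96 and 0.09. Another 4 mesenchymal genes had differences above 0, such as AXL at 0.20 and -0.35. EPCAM, an epithelial adhesion gene, was at 0.39 and -1.35. SMAD4, through which TGF-beta and BMP signals pass, was at -1.80 and 0.05 by its brightest probe, and at -0.39 and 0.09 by the other. Over 18 epithelial genes the median difference was 0.02.

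Ribosomal protein genes were a little higher with siRNA 2, but the size depended on the scale. Of 72 measured of 74, 13 (18.1%) lay at or below -0.5 and 0 at or above 0.5. The median difference was -0.32 by ratio and -0.15 on the Cy5 channels. RPS3A was the lowest, at -1.74 and 0.24, and 4 others of its 6 probes gave differences between -1.89 and -1.98. The remaining RPS3A probe, of another transcript, gave -0.36. RPS23 had probes that disagreed, with -1.03 by the brighter one and 1.70 by the other, so it has no settled direction. RPL4 was at -1.32 and 0.36.

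A further 10 lists had small median differences. NF-kB and cytokine genes (0.02) and p53 targets (0.01) changed sign under scalings that left the median of all genes near 0, and no direction is given for them. Under median centring, which moved the median of all genes to 0.11, the sign also turned for interferon-stimulated genes (-0.08), heat shock proteins (-0.02), EGFR family genes (-0.01), TGF-beta genes (-0.03) and the sterol (-0.10), matrix (-0.09), splicing (-0.13) and lysosome and autophagy lists (-0.13). A median near 0 did not mean few differences. Among 48 measured interferon-stimulated genes 11 (22.9%) lay at or below -0.5 and 7 at or above 0.5, with 3 past 1 on each side. ISG20 was at -1.28 and 0.32, and IFITM2 was the reverse, at -0.23 and -1.53. Of 30 lysosome and autophagy genes 12 (40%) lay at or below -0.5, while 5 reached 0.5 on the other side. Of 21 measured TGF-beta genes 6 (28.6%) lay at or below -0.5, and of 43 measured matrix genes 11 (25.6%) did and 7 (16.3%) lay at or below -1. The 10 autophagy genes had a median difference of -0.77 (-0.80 on Cy5), with 8 below 0. Among them SQSTM1, the cargo receptor p62, was at -0.98 and 0.09, and BECN1, which starts autophagosomes, was at -0.96 and 0.10. NF-kB genes were above the mock with both siRNAs, with medians of 0.49 and 0.37. CXCL1, a chemokine of that list, was at 2.10 and 2.49, and CXCL2 was at 1.92 and 1.68. Single members still differed widely. IL6 was at 0.88 and 3.04, a difference of -2.16, and IL1B at -0.05 and 1.26. CSF2 was the reverse, at 1.29 and 0.22. Among 29 measured p53 targets 7 (24.1%) lay at or above 0.5 and 7 at or below -0.5, while 3 (10.3%) lay at or above 1. These were POLH, at 0.98 and -0.97 by its brighter probe, FDXR, at 0.69 and -0.67, and TNFRSF10B, at 1.10 and -0.05. CDKN1A, the p53 target that halts the cycle, was within 0.02 of the mock with both. MDA-MB-231 is known to carry mutant p53. None of the 7 HLA class I chains lay past 0.5 on either side.

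Smaller median differences kept their sign under every processing for 6 further lists. Oxidative phosphorylation genes had a median difference of 0.17 over 47 genes. In that list UQCRFS1, the iron-sulphur subunit of complex III, was at -2.54 and -0.24, and NDUFB5, of complex I, was at 0.10 and -1.85. BCL2 family and caspase genes had a median of 0.15. Argonaute, Dicer and GW182 genes, through which siRNAs act, had a median of 0.15, but of 0.039 on the Cy5 channels and 0.023 by the median over probes. Metallothioneins and the HLA class I list lay at 0.06 each. Nucleolar genes lay at -0.22, but at -0.012 by median centring, and were above the mock with both siRNAs, at 0.34 and 0.43.

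At the edges, 12 genes on each side were taken by the largest difference that the Cy5 channels shared. On the side of siRNA 1, GNG5 (NM_005274), a G protein gamma subunit, was at 0.80 and -2.28, a difference of 3.08. LEPROTL1 followed at 0.92 and -1.97 by its brightest probe, but its second probe, for another transcript, gave -0.29 and -0.25. SLC40A1, the iron exporter ferroportin, was at 1.18 and -1.39, and CSRP2, a LIM domain protein, had a difference of 2.56. GMFB was at 0.22 and -2.16, and its second probe at 0.39 and -0.41. RECQL4, a helicase of origin firing, and PCLAF, which binds PCNA, completed the list with TK1, E2F2, CDC45, UHRF1 and SPC24. The other RECQL4 probes gave differences of 2.23 and, by dimmer ones, of 0.43 and -0.06.

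On the side of siRNA 2 the extremes were of other kinds. AKR1C1, an aldo-keto reductase, was at -1.57 and 1.91, a difference of -3.48, with a second probe at -2.99. Its family holds near-identical copies, and AKR1C8 (-2.75) may share its signal. RAB31, a small GTPase of vesicle traffic, was at -2.28 and 0.96. GNB4, a G protein beta subunit, was at -2.39 and 0.50, and SLC25A24, a mitochondrial carrier, at -2.01 and 0.81. AHNAK, a large scaffold protein, was at -2.98 and -0.10, a difference of -2.88. Its other probes gave -2.12 and, for another transcript, -0.49, the last with ratios of 0.45 and 0.94, so the size and the sign against the mock depended on the probe. RASD1, a Ras-like protein, was the opposite case with 1.09 and 3.87, above the mock with both. The others were PLOD2, SCARNA13, SCARNA20, SNORA48 and SNORA67.

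Genes past 1 on opposite sides of the mock were rare. With siRNA 1 at or above 1 and siRNA 2 at or below -1 there were 10 genes (0.0523%), namely CDK16, CSRP2, MDK, C4orf46, GINS2, E2F2, SPC24, PLSCR1, MEST and SLC40A1. Of these GINS2, E2F2 and SPC24 are members of replication or cell cycle lists. The reverse held for 11 genes (0.0575%), namely SAT1, PLOD2, PTPRU, AKR1C1, DAAM1, SNORA67 and SCARNA11, SCARNA13, SCARNA14, SCARNA16 and SCARNA20. SAT1, which acetylates polyamines, was at -1.21 and 1.12. MDK, the growth factor midkine, was at 1.16 and -1.07. All 21 of these genes had Cy5 differences past 2 on the same side, from 2.04 for CDK16 to -4.56 for SCARNA13.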

How the data were processed

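RNA of MDA-MB-231 cells was hybridised to 2-colour Agilent arrays. Per the file headers, the authors extracted the scans with Feature Extraction 11.5.1.1 and deposited intensity columns, the mean brightness and local background of each spot on a linear scale, not normalized. The log10 ratio that the authors deposited per spot and in the series table, identical in both, served as an alternative after conversion to log2. Probe positions follow hg19.

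Each array held 62976 spots, of which 2075 were controls, and 157 and 161 spots with outlier flags were left out. In limma 3.58.1 (R 4.3.3), background was corrected by normexp with an offset of 50, log2 ratios were normalized within arrays by loess, and spots were averaged per probe. Cy5 and Cy3 channels were compared after quantile normalization of the pair. Counts and figures were made with numpy 2.4.6, pandas 2.3.3 and matplotlib 3.10.9 under Python 3.11.15. Of 33080 probes with a RefSeq accession 31104 were renamed through a symbol table, and the brightest probe over all arrays, by mean log2 intensity, stood for a gene. Probes named only by transcript or probe identifier were left out. The steps were tested on simulated data.

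Named genes were GINS1 and its partners, the 12 genes farthest apart on each side, genes past 1 on opposite sides, and in each of 29 lists the members past 1 (else the 2 farthest from 0). Further members are named beyond this rule, and some that it names are not reported here. The members and lists were chosen with earlier results of these data known.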

Additional observations from a re-analysis of the deposited data

Results flagged for a closer look

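The following values lay on opposite sides of the mock with the siRNAs, and the difference between the siRNAs was not tested. With siRNA 1 at or above 1 and siRNA 2 at or below -1, the differences were 2.25 for CDK16, 2.56 for CSRP2, 2.23 for MDK, 2.24 for C4orf46, 2.28 for GINS2, 2.44 for E2F2, 2.28 for SPC24, 2.05 for PLSCR1, 2.04 for MEST and 2.57 for SLC40A1. The reverse gave -2.33 for SAT1, -3.12 for PLOD2, -2.24 for PTPRU, -3.48 for AKR1C1, -3.67 for SNORA67, -4.35 for SCARNA13, -2.60 for SCARNA16, -2.76 for SCARNA20, -2.09 for DAAM1, -2.68 for SCARNA14 and -2.36 for SCARNA11.

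Medians of 10 lists were also on opposite sides, each farther from the mock than the SD of the mock difference, 0.0740. This SD is of single genes between mock channels, so it measures neither the spread of a list median nor that between transfections. The median differences of these lists were 0.65 for helicase and licensing and 1.10 for polymerases and nucleotide supply. They were 0.58 for checkpoint and fork repair, 0.58 for G1 to S genes and 0.84 for mitotic genes. They were 0.32 for ER genes, 0.17 for oxidative phosphorylation and 0.57 for the proteasome. They were -0.38 for the ATF4 programme and -0.66 for hypoxia genes.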

How the results depend on the processing

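No paired analysis was possible because each siRNA had 1 array. Of the list medians, 19 of 29 kept their sign under all alternatives run, and of 1610 values of the 230 genes that the naming rule gives 1 changed sign, RPS23, at 0.33 by the median over probes. Genes named beyond that rule, such as POLA1, were not among them. Counts past 1 (574 and 524) and list medians otherwise moved in size, as follows, and the cause was not tested.

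With the scanner log ratio the counts were 1717 and 1643, with an offset of 10 they were 906 and 912, and with a size of 0.5, chosen after seeing the data, 2215 and 1778. Without background correction 842 genes lay at or below -1. With median centring 1083 lay at or above 1. By Aquantile scaling, direct Cy5 genes at or above 1 numbered 601 (605 by quantile scaling), direct Cy5 genes at or below -1 numbered 573 (626), and no mock difference passed 1 on either side.

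Median centring moved GINS1 to 0.86, helicase to 0.86, polymerases to 1.39, checkpoint to 0.78, G1 to S to 0.80, mitotic to 1.11, histones to 1.17, proteasome to 0.86, ER to 0.55 and oxidative phosphorylation to 0.40. It moved p53 to 0.27, NF-kB to 0.14, interferon to 0.026, HLA to 0.32, heat shock to 0.18, sterol to 0.11, matrix to 0.056, EGFR to 0.20, Argonaute to 0.38, BCL2 to 0.36, metallothioneins to 0.33, splicing to 0.12, TGF-beta to 0.12 and lysosome to 0.10. It moved ATF4 to -0.19, hypoxia to -0.45, epithelial and mesenchymal to -0.059, AP-1 to -0.14, ribosomal to -0.042 and nucleolar to -0.012.

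The scanner log ratio moved GINS1 to 0.71, helicase to 1.15, polymerases to 1.25, checkpoint to 0.99, G1 to S to 0.79, mitotic to 0.98, histones to 1.06 and ER to 0.46. It moved NF-kB to -0.075, interferon to -0.19, ATF4 to -0.48, hypoxia to -0.80, sterol to -0.18, epithelial and mesenchymal to -0.29, AP-1 to -0.46, EGFR to -0.085, ribosomal to -0.20, TGF-beta to -0.11 and nucleolar to -0.30. An offset of 10 gave helicase 0.99, checkpoint 0.87, G1 to S 0.76, ER 0.40, ATF4 -0.50, hypoxia -0.82, sterol -0.19, epithelial and mesenchymal -0.32, AP-1 -0.39 and nucleolar -0.30. No background correction gave helicase 0.95, checkpoint 0.86, G1 to S 0.76, interferon -0.15, ER 0.40, ATF4 -0.49, hypoxia -0.82, sterol -0.18, epithelial and mesenchymal -0.31 and AP-1 -0.38.

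On the Cy5 channels G1 to S was 0.67, ATF4 -0.47, heat shock -0.12, Argonaute 0.039, ribosomal -0.15, oxidative phosphorylation 0.087 and splicing -0.22. By the median over probes G1 to S was 0.48, Argonaute 0.023 and splicing -0.059. Signal near background limits dim genes, whose log2 ratios an offset of 50 draws toward 0.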
